A study of Mus musculus with 12 samples.

Results

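Oocytes of secondary follicles, taken at postnatal day 14 (P14) from *Tbpl2*-/- and wild-type (WT) mice, were compared gene by gene. The comparison used 6 of the 12 libraries of the series, which were chosen by their labels: 3 of P14 *Tbpl2*-/- and 3 of P14 WT. The other 6, of the same genotypes at P7, entered the fit only to share its estimate of the spread. Each library was made from polyadenylated RNA of a pool of hand-picked, size-selected oocytes, 144 to 260 of them in WT and 130 to 214 in *Tbpl2*-/-. The *Tbpl2*-/- females carry the mutation in all cells and from conception, so these oocytes had lacked TBPL2 since it would first have been made. The strain, and the animals that gave each pool, are not given in the sources used here. The p-values therefore measure the spread between pools.

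Genes are read by RNA polymerase II after a TATA-binding protein (TBP) or a relative of it has settled on the core promoter. TBPL2 is such a relative, which in the mouse takes the place of TBP while the oocyte grows. A growing oocyte stores RNA and protein for its later meiotic divisions and for the first cleavages of the embryo, exchanges signals with the granulosa cells around it, and stays arrested in prophase of meiosis I.

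Between 35357667 and 48030724 reads were counted per P14 library. On the first principal component of the 6 libraries, with 79.1% of the variance, the genotypes lay apart, and on the second, with 9.4%, the libraries of each genotype lay in the order of their labelled amounts of RNA, with WT replicate 2 (2.6 ng) and *Tbpl2*-/- replicate 1 (2.8 ng) at one end. Deviations from the genotype mean followed transcript length in *Tbpl2*-/- replicate 1 (Spearman −0.28 across 10757 coding genes, which are not independent) and the opposite way in replicate 3 (0.33), against −0.11 to 0.16 in the WT libraries. The part of RNA amount and of length in the results was not tested. Libraries of the same genotype correlated with r = 0.9816 to 0.9918 and those of different genotypes with r = 0.929 to 0.9385 (log2 CPM). Among markers of other cells, 4 haemoglobin genes were at 0 in every P14 library, and the red cell marker *Alas2* had 1.15 to 9.66 normalised counts. Only uniquely aligned reads were counted, so reads that fit 2 genes alike would be lost. Not all other marker lists were near 0. Granulosa markers summed to 4920 or more in each library, the larger part being *Esr2*, beside 564000 or more for oocyte markers. The stromal, macrophage and theca sums were at most 431.

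*Tbpl2* itself (chr2:24071721-24096595) had normalised counts of 2110.2, 2442 and 1900.5 in WT replicates 1 to 3 and 83.3, 81.9 and 75.3 in *Tbpl2*-/- replicates 1 to 3, so each mutant pool lay far under each WT pool (log2 fold change −4.72, SE 0.17, adjusted p = 2.75e-11, edgeR quasi-likelihood F test). A normalised count is a read count divided by the size factor of its library, and sample values are given throughout in the order of the replicates, with those of WT first where they are joined by "against". Of 55450 genes in the table, 17715 had enough reads to be tested. At an adjusted p of at most 0.05, 4932 of them (27.8%) were lower in *Tbpl2*-/- and 5292 (29.9%) were higher. With a change of more than 2-fold besides, 2589 were lower (14.6%) and 2967 higher (16.7%). Below, "fell" and "rose" are used of genes that passed the adjusted p.

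These calls are relative to the rest of the RNA. The labels give approximate amounts of total RNA that come to 25.5, 18.1 and 28.1 pg per oocyte in WT and 20.6, 47.7 and 52.8 pg in *Tbpl2*-/-, so the groups overlapped and 2 of the 3 mutant pools lay above all WT pools. In the reads themselves, fewer oocytes and less RNA per oocyte cannot be told apart, and the scaling by the trimmed mean of M values (TMM) sets the typical gene close to no change. The median log2 fold change of all tested genes was 0.07. Scaled by library size alone it was 0.48, and the split of the calls beyond 2-fold went from 46.6% lower and 53.4% higher to 24.0% lower and 76.0% higher (1556 and 4922 genes). For the gene lists below, the counts by library size alone stand beside the main ones. At an adjusted p of at most 0.05 and any fold, that scaling gave 2962 lower and 8262 higher among the 17715 tested genes.

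**Figure D1:**
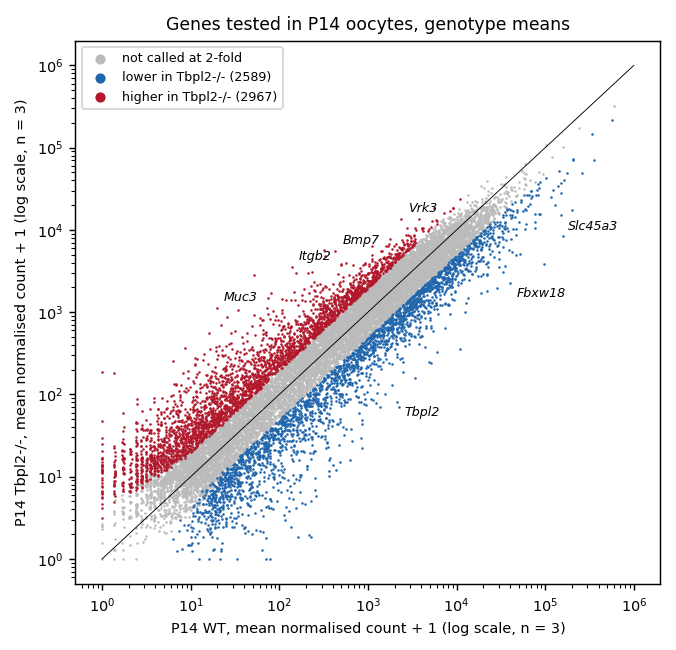
Mean normalised count plus 1 of each tested gene in P14 WT (x axis) and P14 *Tbpl2*-/- (y axis), both on log scales, with 3 libraries per mean and the line of equal counts. The 2589 genes called lower (blue) lie under the line and reach the most abundant RNAs, while the 2967 called higher (red) lie above it.

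The 10 largest falls were taken among genes called beyond 2-fold with a mean above 100 normalised counts and no overlap between genotypes. Predicted genes and genes described before, such as *Bmp15* (log2 −4.21), were set aside. The 10 came from several functions. *Sept12* (chr16:4986858-4997852), whose product is a septin known from the sperm tail, had 281, 203 and 193 normalised counts in WT and 0.957, 3.47 and 7.79 in *Tbpl2*-/- (log2 fold change −5.72, SE 0.43, adjusted p = 3.03e-08). *Kcnh5* (chr12:74897220-75177332), for a voltage-gated potassium channel of the EAG family, had 287, 263 and 198 in WT and 1.91, 12.5 and 3.46 in *Tbpl2*-/- (log2 fold change −5.23, SE 0.41, adjusted p = 4.15e-08). In both genes no mutant library held more than 12.5 normalised counts. *Elovl7* (chr13:108214404-108285683), for an enzyme that lengthens fatty acids, fell from a higher level, with 2423, 2261 and 2084 in WT and 60.3, 77.0 and 71.0 in *Tbpl2*-/- (log2 fold change −4.99, SE 0.22, adjusted p = 1.63e-10). *Slco1a4* (chr6:141805440-141856199), for a transporter of organic anions, went from 415, 436 and 353 to 9.57, 13.2 and 15.6 (log2 fold change −4.93, SE 0.26, adjusted p = 7.12e-10). *Tspan1* (chr4:116161869-116167601), for a tetraspanin of the cell surface, went from 267, 271 and 214 to 11.5, 6.94 and 7.79 (log2 fold change −4.83, SE 0.39, adjusted p = 5.4e-08). WT pools varied by less than 1.5-fold in these genes, and no mutant pool came near them.

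Next in order came *Dgkk* (chrX:6779306-6948363), which encodes a kinase of the lipid messenger diacylglycerol. It had 867, 452 and 659.8 in WT and 16.3, 27.8 and 35.5 in *Tbpl2*-/- (log2 −4.60), with the widest WT spread of the 10. *Cflar* (chr1:58711508-58758884), for the caspase-8 inhibitor c-FLIP, had 343, 357 and 395 against 7.66, 16.0 and 21.6 (log2 −4.55). *Cntnap3* (chr13:64736182-64903955), for an adhesion protein of the contactin-associated family, had 243, 181 and 192 against 17.2, 9.71 and 6.92 (log2 −4.17). *Zfp980* (chr4:145670685-145704441), for a zinc finger protein, had 493, 505 and 397 against 22.0, 20.1 and 27.7 (log2 −4.30), but with 71.3% of the 50-base windows recurring in *Rex2* its reads may be split between genes. *Fbxw18* (chr9:109676734-109702700), for an F-box protein with WD40 repeats, was by far the most abundant of the 10, at 38395, 45213 and 35867 in WT and 2659, 2111 and 2014 in *Tbpl2*-/- (log2 fold change −4.12, SE 0.14, adjusted p = 2.75e-11).

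The 10 largest rises were genes with at most 178 normalised counts in any WT library. The limit on the mean ran over the 6 P14 libraries, so a gene low in WT could pass through its mutant counts. With the ranking by fold, low WT levels follow in part from this choice. *Muc3* (chr5:137134922-137149322), for a membrane mucin of the gut lining, had 19.3, 11.5 and 24.9 normalised counts in WT and 1671, 767 and 951 in *Tbpl2*-/- (log2 fold change 5.92, SE 0.42, adjusted p = 5.74e-08). *Gsn* (chr2:35256380-35307892), for gelsolin, which severs actin filaments, had 7.51, 6.89 and 8.30 in WT and 206, 436 and 458 in *Tbpl2*-/- (log2 fold change 5.60, SE 0.41, adjusted p = 1.95e-08). *Cnr1* (chr4:33924593-33948831), for cannabinoid receptor 1, had 9.66, 1.15 and 5.19 against 195, 228 and 332 (log2 fold change 5.53, SE 0.40, adjusted p = 1.92e-08). Replicate 1 of *Tbpl2*-/- was the highest mutant pool for *Muc3* and the lowest for *Gsn* and *Cnr1*. *Inka2* (chr3:105704599-105720842), for an inhibitor of the kinase PAK4, had 17.2, 17.2 and 10.4 against 465, 611 and 602 (log2 fold change 5.25, SE 0.26, adjusted p = 4.88e-10). *Chst4* (chr8:110029153-110039740), for a sulfotransferase of sugar chains, had 29.0, 25.3 and 20.7 against 723, 789.7 and 1111 (log2 fold change 5.15, SE 0.27, adjusted p = 8.42e-10). *Epn3* (chr11:94489599-94499974), for an epsin of clathrin-coated pits, had 11.8, 27.6 and 22.8 against 497, 755 and 819 (log2 5.08).

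Death and adhesion genes stood among the other rises. *Pmaip1* (chr18:66458533-66465565), for the BH3-only protein NOXA, which favours apoptosis, had 41.9, 27.6 and 31.1 in WT and 593, 1239 and 1366 in *Tbpl2*-/- (log2 fold change 5.01, SE 0.35, adjusted p = 3.06e-08). *Itgb2* (chr10:77530252-77565708), for the beta-2 integrin best known from leukocytes, had 108, 178 and 124 against 3142, 3601 and 3861 (log2 fold change 4.71, SE 0.20, adjusted p = 1.16e-10). Of 6 macrophage and leukocyte markers, *Ptprc*, *Adgre1*, *Lyz2* and *Tyrobp* had fewer than 5 normalised counts in every P14 library. *Csf1r* had 4.33 to 10.3, with 15.1% of the exonic bases under *Hmgxb3* on the other strand. *Cd68*, a lysosomal protein gene, had 98.7, 134 and 104 against 87.1, 99.9 and 64.9 and did not pass. *Mir9-3hg* (chr7:79500026-79534403), the host RNA of a miR-9 hairpin, annotated as a lincRNA, had 11.8, 10.3 and 10.4 against 348, 266 and 196 (log2 4.64). *Zfp658* (chr7:43562256-43575461), for a zinc finger protein, had 10.7, 10.3 and 18.7 against 289, 263 and 374 (log2 4.54).

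**Figure D2:**
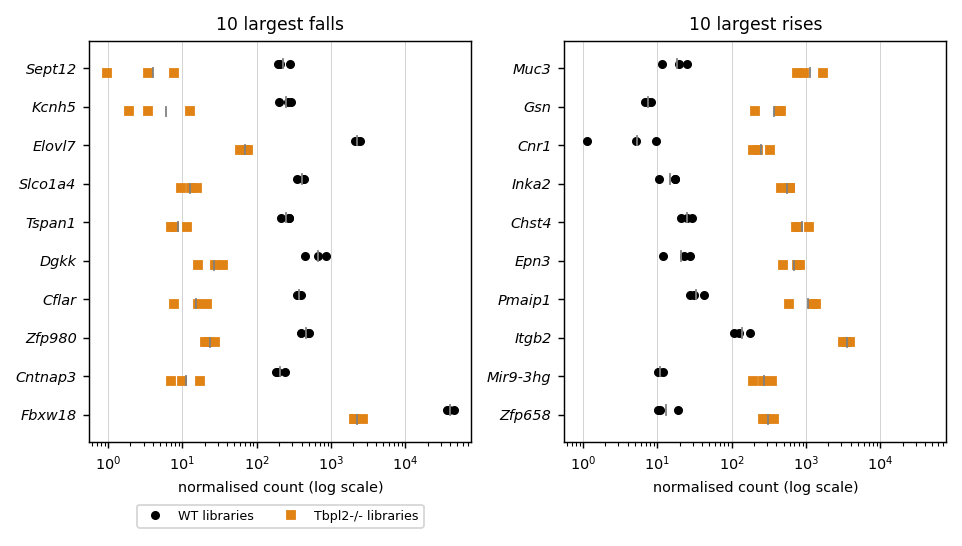
Normalised counts (log scale) of the 10 genes with the largest falls (left) and the 10 with the largest rises (right). Predicted genes and genes described before were set aside. Each library is 1 point, with circles for WT, squares for *Tbpl2*-/- and grey ticks for the means of 3 libraries. The 20 genes were chosen to have no overlap between genotypes, so the separate groups follow from the choice. *Fbxw18* lies well to the right of the other falls.

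Since TBP relatives act at core promoters, the 60 bases before the RefSeq start (GRCm38.p6) are shown for some of these genes. They are the 5 largest falls and the 5 largest rises named above, written 5′ to 3′ on the strand of the gene. The letters TATAA, the core of the TATA box, were searched on that strand with their first base 40 to 20 bases before the start, and would stand in capitals. None of the 10 holds these exact letters in that window. TATA-like variants were not searched, and the start used in these oocytes may differ from the RefSeq start. *Sept12* and *Inka2* have 2 RefSeq starts and *Gsn* and *Cnr1* have 3, of which 1 is shown. The paper instead scored TATA box matches upstream of starts mapped in P14 oocytes, and reports better matches at TBPL2-dependent than at TBPL2-independent starts. The exact letters searched here are a different measure. The start used for *Muc3* lies 16724 bases from the annotated end of the gene and that for *Chst4* 406 bases, and for the others the distance was at most 51 bases.
Sept12, chr16:4997853-4997912, minus strand: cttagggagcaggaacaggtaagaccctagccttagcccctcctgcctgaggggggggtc
Kcnh5, chr12:75177333-75177392, minus strand: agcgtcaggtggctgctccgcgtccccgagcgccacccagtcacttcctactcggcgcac
Elovl7, chr13:108214344-108214403, plus strand: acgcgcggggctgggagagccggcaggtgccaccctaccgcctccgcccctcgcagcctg
Slco1a4, chr6:141856221-141856280, minus strand: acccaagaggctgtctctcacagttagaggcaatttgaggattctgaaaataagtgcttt
Tspan1, chr4:116167599-116167658, minus strand: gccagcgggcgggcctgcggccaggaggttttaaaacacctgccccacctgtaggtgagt
Muc3, chr5:137166047-137166106, minus strand: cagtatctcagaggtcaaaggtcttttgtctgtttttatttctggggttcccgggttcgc
Gsn, chr2:35256299-35256358, plus strand: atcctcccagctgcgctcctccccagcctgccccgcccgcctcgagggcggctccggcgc
Cnr1, chr4:33924584-33924643, plus strand: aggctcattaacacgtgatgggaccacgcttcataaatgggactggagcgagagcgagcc
Inka2, chr3:105704539-105704598, plus strand: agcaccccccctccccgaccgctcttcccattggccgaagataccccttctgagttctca
Chst4, chr8:110039335-110039394, minus strand: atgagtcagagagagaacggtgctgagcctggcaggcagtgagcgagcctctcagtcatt

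Among 32851 RefSeq promoters 3.52% hold TATAA in the window. A promoter could be matched to 12535 tested genes, of which 325 (2.59%) hold it, with 76 of the 1726 genes lower more than 2-fold (4.4%), 62 of the 2095 higher ones (2.96%) and 187 of the other 8714 (2.15%). Read the other way, 23.4% of the 325 genes with TATAA were lower more than 2-fold and 19.1% higher, against 13.5% and 16.7% of the 12210 without it. A match is a description of letters and was not tested. Of the genes chosen for naming by rule with a change of more than 2-fold, 7 hold TATAA, and their promoters are shown. *Hdac9*, *Txnip*, *Tgfb2* and *Irf8* fell (log2 −1.78, −2.06, −1.30 and −1.599), while *Id3*, *Wnt11* and *Kcnn3* rose (log2 1.86, 4.54 and 3.45). The rule took genes in both directions, so this split says nothing on the direction of genes with TATAA. Capitals mark TATAA, whose first base lies 25 to 32 bases before the RefSeq start. For *Id3* that start lies 325 bases downstream of the 5′ end of the gene in the counting annotation, and for the other 6 at that end.
Hdac9, chr12:34917096-34917155, minus strand: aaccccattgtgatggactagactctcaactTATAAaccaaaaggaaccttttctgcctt
Txnip, chr3:96557897-96557956, plus strand: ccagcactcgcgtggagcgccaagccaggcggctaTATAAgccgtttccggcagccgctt
Tgfb2, chr1:186705990-186706049, minus strand: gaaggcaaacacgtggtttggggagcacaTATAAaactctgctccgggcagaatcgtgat
Irf8, chr8:120736298-120736357, plus strand: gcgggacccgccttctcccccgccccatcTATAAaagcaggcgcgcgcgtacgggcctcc
Id3, chr4:136143762-136143821, plus strand: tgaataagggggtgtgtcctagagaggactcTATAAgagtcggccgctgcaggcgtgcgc
Wnt11, chr7:98835052-98835111, plus strand: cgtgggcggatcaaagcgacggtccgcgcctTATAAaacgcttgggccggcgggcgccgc
Kcnn3, chr3:89520104-89520163, plus strand: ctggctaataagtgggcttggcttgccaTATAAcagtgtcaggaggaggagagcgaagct

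By the same limits as for the falls above, the largest losses in number of reads concerned abundant oocyte RNAs. Genes described before were set aside, of which *Gdf9* (mean 356226 in WT, 71187 in *Tbpl2*-/-) and *Bmp15* (159930 and 8511) lost more. *Slc45a3* (chr1:131962967-131982969), for a membrane transporter, had 141867, 173373 and 132423 normalised counts in WT and 15138, 14475 and 15673 in *Tbpl2*-/- (log2 fold change −3.28, SE 0.14, adjusted p = 1.16e-10), with 13.5% of the exonic bases under *Gm29103* on the same strand. *Spin1* (chr13:51100880-51152546), for the histone reader spindlin 1, had 159889, 166731 and 166701 against 37159.6, 40568 and 43499 (log2 fold change −2.004, SE 0.14, adjusted p = 1.29e-08). *Rdx* (chr9:52047173-52088735), for radixin, which ties actin to the plasma membrane, had 137750.4, 151349 and 133618 against 34526, 33401 and 35131 (log2 fold change −2.01, SE 0.12, adjusted p = 2.66e-09). In these genes the pools of a genotype lay close together. *Ldhb* (chr6:142490249-142507957), for a subunit of lactate dehydrogenase, had 169649.7, 211684 and 147568 against 66640.0, 42615 and 37043 (log2 −1.83), with 21% of the 50-base windows recurring in *Gm5514*. *D10Wsu102e* (chr10:83360221-83488505) had 132476, 137246 and 119182 against 20797, 18943 and 20981 (log2 −2.66), with 10.2% of the 50-base windows recurring in *Gm48111*.

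The largest gains in reads by these limits were smaller. *Uqcrc1* (chr9:108936633-108949623), for a core subunit of respiratory complex III, had 5503, 6248 and 5045 in WT and 24408, 16462 and 14298 in *Tbpl2*-/- (log2 fold change 1.74, SE 0.17, adjusted p = 5.48e-07), with mutant replicate 1 above the others. *Vrk3* (chr7:44748413-44777515), for a pseudokinase of the vaccinia-related family, had 2214, 2762 and 2083 against 15045, 13255 and 12123 (log2 fold change 2.54, SE 0.12, adjusted p = 2.73e-10). *Id3* (chr4:136143497-136145755), for an inhibitor of helix-loop-helix factors and a target of BMP signals, had 3988, 3784 and 3645 against 14349.6, 14296 and 12229 (log2 fold change 1.86, SE 0.13, adjusted p = 1.83e-08). *Shisa8* (chr15:82206168-82212815) had 11558, 11520.0 and 9404 against 28047, 24839.7 and 18867 (log2 1.16), and *Atmin* (chr8:116943393-116960445), for a zinc finger factor linked to the ATM kinase, had 8506, 9575 and 9149.6 against 20338, 17898 and 17484 (log2 1.05). No gain among these 5 reached the size of the smallest of the 5 losses.

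**Figure D3:**
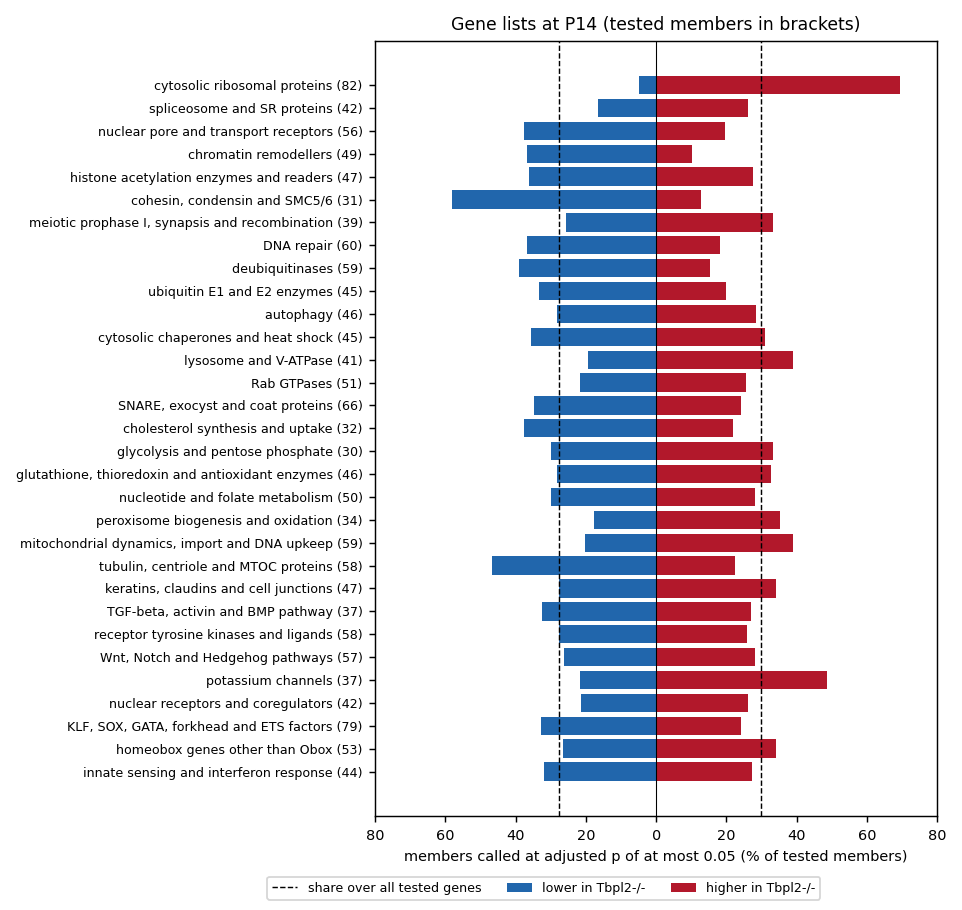
Share of the tested members of 31 gene lists that were lower (blue, to the left) or higher (red, to the right) in P14 *Tbpl2*-/- at an adjusted p of at most 0.05, in percent, with the number of tested members in brackets. Dashed lines mark the shares over all tested genes (27.8% lower, 29.9% higher). Ribosomal protein genes reach furthest to the right and cohesin and condensin genes furthest to the left. By library size alone the latter had 10 lower and 11 higher, where all 17715 tested genes had 2962 lower and 8262 higher.

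In each of 31 gene lists, the 3 largest falls, the 3 largest rises and the most abundant gene per kb were considered for naming. Some further members were named after their values were seen. Each count of list members is to be read beside the shares over all tested genes, 27.8% lower and 29.9% higher. On genes above 100 normalised counts fewer genes were tested, and over all genes 3692 were then lower and 3956 higher. The numbers tested by that limit are not given, so these counts, and those of list members by it, carry no shares. Where more than 10% of a gene's 50-base windows recur in another gene, or of its exonic bases lie under one, this is said beside it, since its reads may be lost or counted for the other gene. Of the 82 genes for proteins of the cytosolic ribosome, all tested, 57 (69.5%) were higher in *Tbpl2*-/-, 33 of them more than 2-fold, while 4 were lower and 21 did not pass (2 lower and 75 higher by library size alone). Their median log2 fold change was 0.75, against 0.07 for all genes. *Rps13*, for a protein of the small subunit, had 67.6, 42.5 and 60.2 normalised counts in WT and 208, 197 and 194 in *Tbpl2*-/- (log2 fold change 1.83, SE 0.20, adjusted p = 1.63e-06), with 17.5% of the 50-base windows recurring in *Rps13-ps1*. *Rpl41*, for the smallest protein of the large subunit, had 237, 257 and 352 against 881, 1017 and 811 (log2 fold change 1.70, SE 0.20, adjusted p = 3.32e-06), with 17.6% of the 50-base windows recurring in *Gm10076*. Both pairs of groups were well separated. The most abundant of the list per kb, *Rpl4*, went from 5203 to 5733 and did not pass (log2 fold change 0.16, SE 0.11, adjusted p = 0.222), with 15.2% of the 50-base windows recurring in *Gm5835*. *Rpl17*, for a protein of the large subunit, went the other way, with 3169, 2741 and 2610.0 in WT and 839, 1087 and 838 in *Tbpl2*-/- (log2 fold change −1.602, SE 0.14, adjusted p = 1.32e-07), with 44.7% of the 50-base windows recurring in *Rpl17-ps8*. Processed pseudogenes share sequence with most of this family, so single values are uncertain. The family is short: 79 of its genes have a median transcript length up to 1000 bases, where 4775 other coding genes had medians of 0.33 (up to 500 bases) and 0.12 (above 500). The part of length and of pseudogenes in the rise was not tested.

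Splicing takes the introns out of new RNA. In the list of spliceosome and SR proteins 7 of 42 tested members were lower, 11 were higher and 24 did not pass (median log2 fold change 0.16). That is 16.7% and 26.2%, beside 27.8% and 29.9% of all genes. Scaling by library size alone gave 1 lower and 28 higher. *Snrpb*, for a core protein of the spliceosomal snRNPs, rose from 2559 to 6767 (log2 fold change 1.42, SE 0.13, adjusted p = 1.51e-07), while *Sf3b3*, for a subunit of the U2 snRNP, fell from 13991 to 6927 (log2 fold change −0.99, SE 0.15, adjusted p = 4.74e-05).

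RNA and protein pass the nuclear envelope through nuclear pores with the help of importins and exportins. In this list 21 of 56 tested members were lower, 11 were higher and 24 did not pass (median log2 fold change −0.15), with 10 lower and 2 higher by more than 2-fold, but scaling by library size alone gave 14 lower and 25 higher at any fold. *Nup98*, for a nucleoporin that lines the channel, had 16129, 16725 and 19026 in WT and 3017, 4141 and 5383 in *Tbpl2*-/- (log2 fold change −2.03, SE 0.22, adjusted p = 2.65e-06). On the cytoplasmic side of the pore, *Nup214*, the most abundant of the list per kb, had 46352, 47722 and 49149 against 15351, 17681 and 19359.7 (log2 fold change −1.43, SE 0.17, adjusted p = 4.41e-06). Neither overlapped between genotypes, and in both the mutant values were lowest in replicate 1. *Xpo4*, for an exportin, fell from 5498 to 1195 (log2 −2.18), and the importin-alpha genes *Kpna1* and *Kpna4* rose (log2 1.19 and 1.098), as did *Seh1l*, for a subunit of the pore scaffold (log2 0.80).

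The rings of cohesin, condensin and SMC5/6 hold sister chromatids together and compact chromosomes. Of their 31 tested genes 18 (58.1%) were lower, 4 higher and 9 did not pass, with a median of −0.35. Scaling by library size alone gave 10 lower and 11 higher, where all 17715 tested genes gave 2962 lower and 8262 higher. The median was then 0.07 beside 0.48 for all genes. *Stag2*, for a cohesin subunit, had 2145, 2683 and 2877 in WT and 392, 484 and 583 in *Tbpl2*-/- (log2 fold change −2.38, SE 0.23, adjusted p = 5.71e-07). *Ncapd3*, for a condensin II subunit, had 3643, 4295 and 4092 against 868, 825 and 936 (log2 fold change −2.17, SE 0.22, adjusted p = 1.23e-06). *Esco1*, whose product acetylates cohesin, had 7208, 8235 and 7173 against 2359.7, 2325 and 2374 (log2 fold change −1.66, SE 0.12, adjusted p = 2.25e-08). The mutant pools of all 3 genes agreed within 1.5-fold. The condensin ATPase gene *Smc4*, the most abundant of the list per kb, fell from 26654 to 10791 (log2 −1.28). Of the 4 genes that rose, none passed 2-fold, and *Smc1b*, for the meiotic cohesin ATPase that growing oocytes rely on, was the highest by fold, at 1726, 2001 and 1796 in WT and 3063, 2545 and 2399.6 in *Tbpl2*-/- (log2 fold change 0.56, SE 0.14, adjusted p = 0.00254).

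Chromatin remodellers use ATP to shift nucleosomes. Here 18 of 49 tested members were lower, 5 were higher and 26 did not pass (median log2 fold change −0.15), and scaling by library size alone gave 7 lower and 15 higher. *Atrx*, for a remodeller of heterochromatin, had 13494, 13858 and 16804 in WT and 3189.7, 3668 and 4187 in *Tbpl2*-/- (log2 fold change −1.98, SE 0.13, adjusted p = 7.98e-09). *Smarcad1* fell from 2819.8 to 697 (log2 −1.99) and *Chd9* from 9535 to 3291 (log2 −1.51). *Chd9* had 1693, 3449 and 4732 in the mutant pools, a wider spread relative to the mean than in WT. *Smarcd1*, a BAF complex subunit gene, rose from 265 to 654 (log2 1.32), with 12.7% of the exonic bases under *Gm17349* on the other strand, while *Smarcd2*, of the same complex, fell from 18105 to 9148 (log2 −0.96). For histone acetylation enzymes and readers 17 of 47 tested members were lower, 13 were higher and 17 did not pass (median log2 fold change −0.03), and scaling by library size alone gave 10 lower and 23 higher. *Hdac11*, for the only class IV deacetylase, had 248, 186 and 244 against 1807, 2188 and 2262 (log2 fold change 3.23, SE 0.15, adjusted p = 2.73e-10), with 17.9% of the exonic bases under *Gm44002* on the other strand. *Brdt*, for a bromodomain protein known from the testis, had 5652, 6631 and 5354 against 1231, 1344 and 1301 (log2 fold change −2.16, SE 0.11, adjusted p = 6.78e-10). *Sirt5*, for a mitochondrial deacylase, fell from 825 to 123 (log2 −2.72), with 14.2% of the 50-base windows recurring in *Wdr31*, and the class IIa deacetylase gene *Hdac9* from 434 to 124 (log2 −1.78).

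The oocytes were past pairing and recombination of their chromosomes, yet they held RNA of many genes for these steps. In the list of prophase I, synapsis and recombination genes 10 of 39 tested members were lower, 13 were higher and 16 did not pass (median log2 fold change 0.21), with 8 lower and 23 higher by library size alone. The synaptonemal complex is the protein ladder between paired chromosomes. *Sycp2*, of its lateral elements, had 4283, 4312 and 4145 in WT and 1127, 1384 and 1452 in *Tbpl2*-/- (log2 fold change −1.66, SE 0.14, adjusted p = 1.03e-07). *Syce2*, of its central element and the most abundant of the list per kb, fell from 14694 to 8691 (log2 −0.74, not passing by library size alone). *Terb2*, for a protein that ties telomeres to the envelope, rose from 5.37 to 98.3 (log2 4.17). *Tex11*, for a protein of recombination sites, had 152, 197 and 163 against 645, 549 and 557 (log2 fold change 1.79, SE 0.16, adjusted p = 1.85e-07). *Sun1*, for the envelope protein that tethers telomeres, fell from 8513 to 2545 (log2 −1.72), and *Mnd1*, for a partner of the DMC1 recombinase, rose (log2 1.19), with 40.8% of the 50-base windows recurring in *Mnd1-ps*.

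Among DNA repair genes 22 of 60 tested members were lower, 11 were higher and 27 did not pass (median log2 fold change −0.24), and scaling by library size alone gave 13 lower and 26 higher. Without WT replicate 1, or without WT replicate 3, 6 were higher. *Rad52*, for a recombination mediator, had 1657, 1700.3 and 1260.4 in WT and 309, 302 and 289.9 in *Tbpl2*-/- (log2 fold change −2.34, SE 0.14, adjusted p = 2.61e-09). In the Fanconi anaemia pathway, which mends crosslinked strands, *Fancm*, *Fancd2*, *Fancb* and *Fanca* fell (log2 −1.14, −1.12, −1.02 and −0.92, the last with 10.5% of the exonic bases under *Zfp276* on the other strand), while *Fance* rose (log2 0.64). *Xpc*, whose product finds bulky lesions, had 3651, 3592 and 3282 against 7137, 6753 and 6691 (log2 fold change 0.99, SE 0.10, adjusted p = 4.32e-07), and *Mgmt*, for the methyltransferase that repairs alkylated guanine, rose from 789.9 to 1569 (log2 1.01). The most abundant per kb, *Ddb1*, for a damage-binding subunit of a ubiquitin ligase, went from 18779.9 to 13532 (log2 fold change −0.45, SE 0.18, adjusted p = 0.0453), a call lost by library size alone and in leaving out either WT replicate 1 or 3 or *Tbpl2*-/- replicate 1 or 2.

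Ubiquitin marks proteins for destruction, and deubiquitinases take it off. Of 59 deubiquitinase genes tested, 23 (39.0%) were lower, 9 higher and 27 did not pass (median −0.29), and scaling by library size alone gave 13 lower and 22 higher. *Usp46*, an abundant one, had 33017, 35294 and 32759 in WT and 7853, 7522 and 7771 in *Tbpl2*-/- (log2 fold change −2.11, SE 0.14, adjusted p = 6.38e-09). *Usp13* had 289.8, 219 and 189 against 19.1, 24.3 and 40.7 (log2 fold change −3.02, SE 0.36, adjusted p = 3.67e-06). *Usp22*, for the deubiquitinase of the SAGA coactivator, went the other way, with 2519, 2871 and 2834 against 5822, 5787 and 6177 (log2 fold change 1.13, SE 0.11, adjusted p = 3.68e-07). *Uchl1*, the most abundant per kb and a protein long known from oocytes and neurons, had 39419, 32198 and 37073 against 32761, 36657 and 31578 and did not pass (log2 fold change −0.09, SE 0.15, adjusted p = 0.64), with 18.1% of the exonic bases under *Uchl1os* on the other strand. Among ubiquitin-activating and conjugating enzymes 15 of 45 tested members were lower, 9 were higher and 21 did not pass (median log2 fold change −0.04), and scaling by library size alone gave 5 lower and 22 higher. *Ube2c*, for the E2 enzyme of the anaphase-promoting complex, fell from 9917 to 4724 (log2 −1.05), with 22.8% of the exonic bases under *Tnnc2* on the other strand, and *Uba3*, for the activating enzyme of NEDD8, from 5153 to 2456 (log2 −1.05). *Ube2l3* rose from 670.0 to 1948 (log2 1.56), with 28.6% of the exonic bases under *Ydjc* on the other strand.

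Autophagy carries cell contents to the lysosome in membrane sacs. In this list 13 of 46 tested members were lower, 13 were higher and 20 did not pass (median log2 fold change −0.13), with 6 lower and 19 higher by library size alone. Among genes for cargo receptors, *Nbr1* had 10334, 13057 and 10399.6 in WT and 4409, 4249 and 4234 in *Tbpl2*-/- (log2 fold change −1.37, SE 0.16, adjusted p = 2.65e-06), *Tax1bp1*, the most abundant of the list per kb, fell less (log2 −0.59, not passing by library size alone), and *Optn* rose (log2 1.02). *Wipi1*, for a protein that reads the lipid of the forming sac, had 40.8, 36.7 and 74.7 against 151, 242 and 349.6 (log2 fold change 2.30, SE 0.32, adjusted p = 1.6e-05). *Tfeb*, for the transcription factor that switches on lysosomal genes, had 34.3, 27.6 and 48.8 against 150.3, 182 and 183 (log2 fold change 2.23, SE 0.23, adjusted p = 8.92e-07). *Gabarapl1*, of the family that coats the sac, rose from 11.8 to 119.8 (log2 3.34), with 28.3% of the exonic bases under *1700101I11Rik* on the other strand. Among lysosome and V-ATPase genes 8 of 41 tested members were lower, 16 were higher and 17 did not pass (median log2 fold change 0.23), with 2 lower and 24 higher by library size alone. *Ctsl*, for the protease cathepsin L, had 382, 404 and 377 against 1303, 1255 and 1128 (log2 fold change 1.68, SE 0.11, adjusted p = 8.35e-09), with 26.8% of the exonic bases under *Gm47123* on the other strand. *Hexa*, for a subunit of hexosaminidase, had 86.9, 82.7 and 89.2 against 490.1, 399.7 and 284 (log2 fold change 2.198, SE 0.22, adjusted p = 4.44e-07), with 12.8% of the exonic bases under *Tmem202* on the other strand. *Asah1*, for acid ceramidase, fell from 868 to 287 (log2 −1.58). The most abundant per kb, the membrane protein gene *Lamp1*, did not pass (log2 0.11). Without WT replicate 2, 4 lysosome genes were lower, without *Tbpl2*-/- replicate 2 there were 3, and without *Tbpl2*-/- replicate 3 there were 4.

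Chaperones fold proteins and bind them under heat stress. In this list 16 of 45 tested members were lower, 14 were higher and 15 did not pass (median log2 fold change −0.08), and scaling by library size alone gave 6 lower and 21 higher. *Hspa1b*, for HSP70, had 378, 336 and 299 in WT and 16.3, 21.5 and 26.8 in *Tbpl2*-/- (log2 fold change −3.94, SE 0.24, adjusted p = 3.09e-09), with 62.3% of the 50-base windows recurring in *Hspa1a*. Its neighbour *Hspa1a* fell too (log2 −2.24), with 66.3% of the 50-base windows recurring in *Hspa1b* and 19.0% of the exonic bases under *Gm20481* on the other strand. *Dnajb4*, for a co-chaperone of HSP70, had 4272, 4197 and 3867 against 453, 485 and 582 (log2 fold change −3.00, SE 0.13, adjusted p = 1.16e-10). Of the chaperonin CCT, which folds actin and tubulin, *Cct6a*, *Cct7*, *Cct2*, *Cct4* and *Cct8* rose (log2 1.15, 0.95, 0.54, 0.35 and 0.30), the last 2 not passing without WT replicate 3, and *Tcp1*, *Cct3* and *Cct5* did not pass. *Cct6a* had 15.3% of the exonic bases under *Psph* on the other strand. *Fkbp4*, for a co-chaperone of HSP90, had 4179.7, 4285 and 3806 against 11663, 9965 and 8974 (log2 fold change 1.34, SE 0.11, adjusted p = 6.06e-08). *Hsp90ab1*, for HSP90 beta and the most abundant per kb, fell from 44627 to 33444 (log2 −0.40), but stood at 0.02 by library size alone.

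Membrane traffic is steered by Rab GTPases, and SNARE proteins fuse the vesicles. Among Rab genes 11 of 51 tested members were lower, 13 were higher and 27 did not pass (median log2 fold change 0.14), with 7 lower and 28 higher by library size alone. *Rab37*, known from secretory cells, had 40.8, 32.1 and 80.9 normalised counts in WT and 1180.3, 903 and 710.5 in *Tbpl2*-/- (log2 fold change 4.19, SE 0.30, adjusted p = 2.84e-08). *Rab20* had 68.7, 56.3 and 69.5 against 547, 533 and 545 (log2 fold change 3.08, SE 0.25, adjusted p = 5.39e-08), with 25.6% of the exonic bases under *E230013L22Rik* on the other strand. *Rab8b*, of traffic to the cell surface, went down, with 2074, 2014 and 2269.8 against 504, 575 and 626 (log2 fold change −1.88, SE 0.13, adjusted p = 8.43e-09), and the most abundant per kb, *Rab14*, fell from 15874 to 9713 (log2 −0.69). For SNARE, exocyst and coat proteins 23 of 66 tested members were lower, 16 were higher and 27 did not pass (median log2 fold change −0.08), with 15 lower without *Tbpl2*-/- replicate 2, and scaling by library size alone gave 8 lower and 30 higher. *Stx11*, for a syntaxin best known from cytotoxic lymphocytes, had 69.8, 78.1 and 63.3 against 631, 558 and 509.7 (log2 fold change 3.03, SE 0.18, adjusted p = 2.86e-09). *Vamp3*, for a vesicle SNARE of recycling endosomes, fell from 3343 to 1349 (log2 −1.29) and *Copb1*, for a subunit of the COPI coat, from 14730.1 to 6046 (log2 −1.26). *Nsf*, for the ATPase that takes SNARE complexes apart, went from 36679 to 28015 (log2 fold change −0.37, SE 0.14, adjusted p = 0.0371), stood at 0.05 by library size alone and did not pass when WT replicate 1 or 3 or *Tbpl2*-/- replicate 1 or 2 was left out.

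Oocytes make little cholesterol and depend on their granulosa cells for it. Of the genes for its synthesis and uptake 12 of 32 tested members were lower, 7 were higher and 13 did not pass (median log2 fold change −0.12), and scaling by library size alone gave 4 lower and 13 higher. *Srebf1*, for the transcription factor SREBP1, had 6838, 7329 and 6304 in WT and 2368, 2272 and 2197 in *Tbpl2*-/- (log2 fold change −1.56, SE 0.12, adjusted p = 3.37e-08), and *Scap*, the most abundant of the list per kb, whose product escorts it, fell from 14186 to 8324 (log2 −0.75, not passing by library size alone), with 13.2% of the exonic bases under *5830462I19Rik* on the other strand. *Hmgcs1*, at the entry of the pathway, had 15577, 17122 and 15432 against 6488, 6422 and 7094 (log2 fold change −1.25, SE 0.11, adjusted p = 1.16e-07), with 12.1% of the exonic bases under *Gm48342* on the other strand. Genes of later steps went both ways. *Pmvk* rose, at 326, 287 and 280.1 against 964, 904 and 795 (log2 fold change 1.596, SE 0.16, adjusted p = 7.52e-07), as did *Ebp* (log2 1.93), while *Hsd17b7* fell from 5341 to 2050 (log2 −1.36). *Mvk* and *Acat2* rose as well (log2 0.79 and 1.01, the latter with 39.1% of the 50-base windows recurring in *Acat3*).

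Oocytes burn pyruvate from granulosa cells and run little glycolysis, while the pentose phosphate pathway gives them NADPH. In the list of both pathways 9 of 30 tested members were lower, 10 were higher and 11 did not pass (median log2 fold change 0.18), with 7 lower and 15 higher by library size alone. On genes above 100 normalised counts 5 were lower. The phosphofructokinase genes *Pfkl* and *Pfkp* fell: *Pfkl* had 3336, 3962 and 3003 in WT and 1508, 1035 and 999 in *Tbpl2*-/- (log2 fold change −1.52, SE 0.17, adjusted p = 1.43e-06), and *Pfkp* went from 1107 to 374 (log2 −1.54). *G6pdx*, for glucose-6-phosphate dehydrogenase at the entry of the pentose phosphate pathway, was the most abundant of the list per kb and had 40775, 40165 and 37845 against 15303, 15273 and 15309 (log2 fold change −1.35, SE 0.12, adjusted p = 1.86e-07), with 13.6% of the exonic bases under *Ikbkg* on the other strand. Its next steps went the other way, with *Pgls* at 1083, 1171 and 1035 against 3186, 2778 and 2092 (log2 fold change 1.31, SE 0.16, adjusted p = 3.88e-06), with 20.6% of the exonic bases under *Fam129c* on the same strand, and the transaldolase gene *Taldo1* rising from 3292 to 6224 (log2 0.94).

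Glutathione, thioredoxin and related enzymes keep the cell reduced. In this list 13 of 46 tested members were lower, 15 were higher and 18 did not pass (median log2 fold change 0.15), with 11 lower and 25 higher by library size alone. *Cat*, for catalase, had 79.4, 98.7 and 89.2 in WT and 917, 695 and 772 in *Tbpl2*-/- (log2 fold change 3.18, SE 0.16, adjusted p = 5.97e-10). *Prdx4*, for the peroxiredoxin of the endoplasmic reticulum, had 121, 76.9 and 119 against 578, 589 and 446 (log2 fold change 2.36, SE 0.19, adjusted p = 5.39e-08). *Txnip*, for the inhibitor of thioredoxin, was the most abundant per kb and had 31215, 24747 and 33971 against 5949, 7378 and 7983 (log2 fold change −2.06, SE 0.16, adjusted p = 3.45e-08), with 19.4% of the exonic bases under *Gm15441* on the other strand. *Txnrd2*, *Txn2* and *Prdx3*, of the thioredoxin system of mitochondria, rose (log2 1.81, 0.47 and 0.41), while *Gsta4* and *Gstm5*, for glutathione transferases, fell (log2 −1.95 and −1.33, the latter with 13.9% of the exonic bases under *4933431E20Rik* on the other strand).

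Nucleotide and folate metabolism supplies the building blocks of DNA. Here 15 of 50 tested members were lower, 14 were higher and 21 did not pass (median log2 fold change −0.09). The shares, 30.0% and 28.0%, lay near the 27.8% and 29.9% of all genes. Scaling by library size alone gave 7 lower and 27 higher. Both ribonucleotide reductase small subunit genes fell, *Rrm2* with 3707, 4412 and 3231 in WT and 845, 850.1 and 774 in *Tbpl2*-/- (log2 fold change −2.18, SE 0.13, adjusted p = 2.62e-09) and *Rrm2b* from 6321 to 2262 (log2 −1.46), with 10.7% of the 50-base windows recurring in *Gm49085*. *Adss*, for an enzyme of AMP synthesis and the most abundant per kb, had 58728, 65029 and 49510.5 against 26787, 25899 and 26357 (log2 fold change −1.11, SE 0.12, adjusted p = 1.05e-06). *Shmt1*, for the cytosolic serine hydroxymethyltransferase of the folate cycle, rose, with 1350.3, 1533 and 1466 against 4126, 3928 and 3552 (log2 fold change 1.44, SE 0.10, adjusted p = 1.9e-08).

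Peroxisomes oxidise very long fatty acids. In their list 6 of 34 tested members were lower, 12 were higher and 16 did not pass (median log2 fold change 0.14), with 5 lower and 24 higher by library size alone. *Pex6*, for an ATPase that recycles the import receptor, had 1563, 1343 and 1480.3 in WT and 4783, 4478 and 4238 in *Tbpl2*-/- (log2 fold change 1.64, SE 0.11, adjusted p = 1.13e-08). *Far1*, for an enzyme of ether lipid synthesis, fell from 3034 to 998 (log2 −1.58). *Pex13*, the most abundant per kb, went from 6157 to 5801 and did not pass, with a log2 fold change of −0.06 that was 0.35, and called, by library size alone.

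Growing oocytes multiply their mitochondria and the DNA in them. Among genes of mitochondrial dynamics, import and DNA upkeep 12 of 59 tested members were lower, 23 were higher and 24 did not pass (median log2 fold change 0.29), so that 39.0% were higher, against 29.9% of all genes, and scaling by library size alone gave 6 lower and 37 higher. *Timm22*, for the carrier translocase of the inner membrane, had 229.7, 256 and 229 in WT and 1393, 1259 and 1082 in *Tbpl2*-/- (log2 fold change 2.41, SE 0.14, adjusted p = 1.74e-09), and *Timm10*, *Timm13*, *Tomm5* and *Tomm40*, also of import, rose (log2 1.75, 1.31, 1.38 and 1.04). *Twnk*, for the helicase of mitochondrial DNA, had 3609, 3995 and 3426 against 862, 846 and 1038 (log2 fold change −1.98, SE 0.12, adjusted p = 2.31e-09), with 12.6% of the exonic bases under *Mrpl43* on the other strand, and *Tfam*, which packages that DNA, had 4960.0, 5026 and 4665 against 2444, 2555 and 2761 (log2 fold change −0.90, SE 0.10, adjusted p = 2.15e-06). *Polg*, for the mitochondrial DNA polymerase, and *Polrmt*, for the RNA polymerase, rose (log2 0.43 and 0.51). *Dnm1l*, of fission, fell (log2 −0.87), and *Hspa9*, the most abundant per kb, did not pass at −0.09, but was called higher at 0.33 by library size alone.

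The spindle of mouse oocytes grows from many microtubule-organising centres (MTOCs) without centrioles. Of the genes for tubulins, centriole and MTOC proteins 27 of 58 tested members were lower, 13 were higher and 18 did not pass (median log2 fold change −0.30), and 46.6% were lower, against 27.8% of all genes. Scaling by library size alone gave 13 lower and 23 higher, and without WT replicate 3 or without *Tbpl2*-/- replicate 1, 8 were higher. *Tacc3*, of the spindle and the most abundant per kb, had 81596, 95688 and 73419 in WT and 29091, 25704 and 25184 in *Tbpl2*-/- (log2 fold change −1.63, SE 0.12, adjusted p = 1.58e-08), and *Ckap5*, for the microtubule polymerase that works with it, fell too (log2 −1.39). *Nedd1*, which brings the gamma-tubulin ring to MTOCs, had 10157, 13667 and 10699 against 2214, 2285 and 2912 (log2 fold change −2.197, SE 0.14, adjusted p = 6.61e-09). *Plk4*, for the kinase of centriole duplication, had 5965, 6949 and 6131 against 1924, 1611 and 1696 (log2 fold change −1.84, SE 0.14, adjusted p = 4.06e-08). Of the genes that rose, *Tbca* and *Tbce* encode cofactors of tubulin folding (log2 0.71, with 16.1% of the 50-base windows recurring in *Gm6142*, and 0.58).

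**Figure D4:**
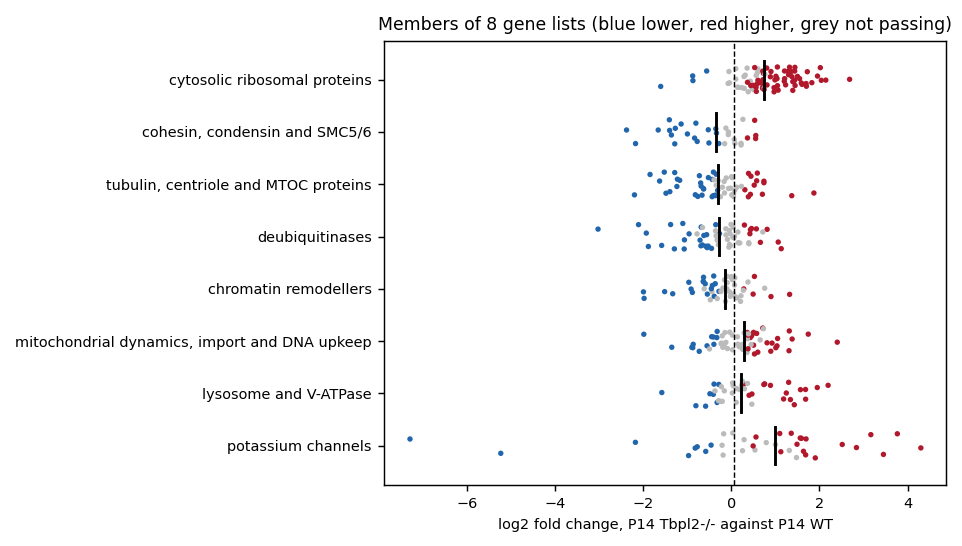
Log2 fold change of each tested member of 8 gene lists in P14 *Tbpl2*-/- against P14 WT (x axis), blue where lower, red where higher and grey where the test was not passed, with a black bar at the median of the list and a dashed line at the median of all genes (0.07). The ribosomal protein genes lie mostly to the right of the line and the cohesin and condensin genes mostly to its left (their median and that of all genes are 0.07 and 0.48 by library size alone), and the potassium channel genes are spread most widely.

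Junctions hold the cells of an epithelium together. Among keratins, claudins and other junction genes 13 of 47 tested members were lower, 16 were higher and 18 did not pass (median log2 fold change 0.05), with 7 lower and 21 higher by library size alone. *Epcam*, for an adhesion molecule of epithelia, had 119, 141 and 205 normalised counts in WT and 3289, 3145 and 2629 in *Tbpl2*-/- (log2 fold change 4.30, SE 0.20, adjusted p = 2.39e-10). *Grhl3*, for a transcription factor of epithelial barriers, had 47.2, 59.7 and 69.5 against 719.9, 941 and 889.6 (log2 fold change 3.87, SE 0.23, adjusted p = 2.36e-09). *Pkp3*, for plakophilin 3 of desmosomes, had 48.3, 27.6 and 49.8 against 511, 419.8 and 418 (log2 fold change 3.43, SE 0.25, adjusted p = 1.83e-08). In contrast *Krt8*, for a keratin of simple epithelia, had 375, 178 and 206 against 25.8, 8.33 and 24.2 (log2 fold change −3.71, SE 0.38, adjusted p = 8.87e-07), with 29.7% of the 50-base windows recurring in *Krt8-ps*, *Dsc2*, for a desmosomal cadherin, fell from 393 to 40.8 (log2 −3.23), and *Cldn8*, for a claudin, from 2076 to 423 (log2 −2.27). *Ctnnb1*, for beta-catenin and the most abundant per kb, went from 12914 to 10297 (log2 fold change −0.31, SE 0.12, adjusted p = 0.0416, with 15.1% of the exonic bases under *Ulk4* on the other strand), stood at 0.11 by library size alone and did not pass when WT replicate 1 or 3 or *Tbpl2*-/- replicate 1 or 2 was left out. Of 5 surface epithelium markers *Upk3b* was called, falling from 195, 137 and 187 to 26.8, 61.1 and 79.6 (log2 fold change −1.600, SE 0.32, adjusted p = 0.000457), *Krt19* and *Upk1b* had fewer than 2 normalised counts in every P14 library, and *Msln* and *Lgals7* had at most 5.19.

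Signals of the TGF-beta and BMP family pass between oocyte and granulosa cells through receptors and SMAD proteins. Leaving *Bmp15* and *Gdf9* aside, 12 of 37 tested members were lower, 10 were higher and 15 did not pass (median log2 fold change −0.03). The shares, 32.4% and 27.0%, lay near the 27.8% and 29.9% of all genes. Scaling by library size alone gave 7 lower and 15 higher. Among ligands, *Bmp7* had 383, 363 and 539 in WT and 5302, 5513 and 5738 in *Tbpl2*-/- (log2 fold change 3.71, SE 0.20, adjusted p = 1.18e-09), while *Tgfb2*, the most abundant of the list per kb, had 19719, 19940.1 and 15845 against 6868, 7580.4 and 7747 (log2 fold change −1.30, SE 0.11, adjusted p = 7.68e-08). Receptor genes *Tgfbr3*, *Bmpr2* and *Bmpr1b* fell (log2 −2.72, −1.55 and −1.19), with *Tgfbr3* at 2517, 2576 and 2741 against 294, 353 and 527. Of the signal carriers, *Smad5* fell (log2 −1.81), and *Smad9* and the inhibitory *Smad7* rose (log2 1.89 and 1.995). The BMP target *Id2* rose with *Id3*, with 132, 93.0 and 116 against 572, 654 and 619.6 (log2 fold change 2.45, SE 0.19, adjusted p = 3.06e-08). On genes above 100 normalised counts 4 members were higher.

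Among receptor tyrosine kinases and their ligands 16 of 58 tested members were lower, 15 were higher and 27 did not pass (median log2 fold change −0.05). The shares, 27.6% and 25.9%, lay near the 27.8% and 29.9% of all genes. Scaling by library size alone gave 7 lower and 21 higher. On genes above 100 normalised counts 8 were higher. *Kit*, the oocyte receptor for the growth signal of granulosa cells and the most abundant of the list per kb, had 36697, 43807 and 41412 in WT and 33634, 31810.2 and 33931 in *Tbpl2*-/- and did not pass (log2 fold change −0.27, SE 0.16, adjusted p = 0.16), although the groups did not overlap and it passed when the 6 P14 libraries were fitted alone (log2 −0.26). *Fgfr2*, for a fibroblast growth factor receptor, had 1922, 1768 and 1502 against 241, 245 and 242 (log2 fold change −2.81, SE 0.20, adjusted p = 1.42e-08). The ephrin receptor gene *Epha7* fell from 430.3 to 82.1 (log2 −2.35), and *Ror2*, for a receptor of WNT5A, rose from 99.5 to 481 (log2 2.29), as did *Ret*, for a receptor of the GDNF family, from 13.2 to 128 (log2 3.27).

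The Wnt, Notch and Hedgehog pathways carry signals between neighbouring cells. In this list 15 of 57 tested members were lower, 16 were higher and 26 did not pass (median log2 fold change −0.04), with 9 lower and 27 higher by library size alone. *Wls*, whose product all secreted Wnt proteins need to leave the cell, had 2516, 2588 and 2277 in WT and 186, 176 and 203 in *Tbpl2*-/- (log2 fold change −3.69, SE 0.15, adjusted p = 6.55e-11). The 5 Wnt ligand genes that passed rose, with *Wnt5a* at 178, 164 and 217 against 1075, 999 and 995 (log2 fold change 2.47, SE 0.17, adjusted p = 8.57e-09) and *Wnt11* at 8.59, 10.3 and 6.22 against 189.5, 204 and 187 (log2 fold change 4.54, SE 0.33, adjusted p = 2.12e-08), followed by *Wnt7b*, *Wnt6* and *Wnt9a* (log2 2.87, 1.31 and 0.65). The nuclear factor gene *Lef1* and the feedback gene *Axin2* fell (log2 −2.21 and −1.598), the former with 13.7% of the exonic bases under *Gm43352* on the other strand. Of the Hedgehog pathway, *Gli3*, for a transcription factor, had 5162, 2774 and 5307 against 263, 366 and 487 (log2 fold change −3.55, SE 0.32, adjusted p = 1.51e-06), and the receptor gene *Ptch1* fell as well (log2 −1.32). Of the Notch pathway, the ligand genes *Jag1* and *Jag2* fell (log2 −2.01 and −0.50, the latter not passing by library size alone), and *Hes1*, a target of the pathway, rose (log2 1.89).

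Potassium channels set the resting potential of a cell. Of 37 tested, 18 (48.6%) were higher, 16 of them more than 2-fold, 8 were lower and 11 did not pass, with a median of 1.0 (5 lower and 23 higher by library size alone). Most had few reads. On genes above 100 normalised counts, where fewer members were tested, 10 were higher, a count without a share. *Kcna5*, for a voltage-gated channel, had 37.6, 41.3 and 46.7 in WT and 505, 478 and 709.6 in *Tbpl2*-/- (log2 fold change 3.77, SE 0.33, adjusted p = 1.36e-07). *Kcnn3*, for a calcium-activated channel, had 64.4, 74.6 and 92.3 against 711, 831 and 961 (log2 fold change 3.45, SE 0.27, adjusted p = 3.47e-08). *Kcnh5* was among the 10 largest falls, and *Kcnq1*, the most abundant per kb, fell from 4275 to 3066 (log2 −0.46, not passing by library size alone). *Kcnj13* had 62.3, 68.9 and 58.1 in WT and 0, 0 and 0.865 in *Tbpl2*-/-, with 49.1% of the exonic bases under *Gigyf2* on the other strand.

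Nuclear receptors turn genes on or off in answer to hormones and lipids. With their coregulators, 9 of 42 tested members were lower, 11 were higher and 22 did not pass (median log2 fold change 0.12), and 4 were higher on genes above 100 normalised counts. By library size alone there were 6 lower and 22 higher. *Esr1*, for oestrogen receptor alpha, had 5622, 6061 and 5856 in WT and 961, 1377 and 1283 in *Tbpl2*-/- (log2 fold change −2.25, SE 0.17, adjusted p = 3.53e-08), while *Esr2*, for oestrogen receptor beta, had 2693, 2731 and 2629 against 2866, 2784 and 3003 and did not pass. The circadian repressor gene *Nr1d1* had 1643, 1503 and 1461 against 341, 411 and 365 (log2 fold change −2.02, SE 0.15, adjusted p = 3.06e-08), and *Rora*, whose product competes with it for the same sites, fell from 1188 to 369 (log2 −1.67). *Nr6a1*, for the germ cell nuclear factor and the most abundant per kb, fell from 14103 to 7509 (log2 −0.89). *Rxrb*, a retinoid X receptor gene, rose from 1316 to 2777 (log2 1.097), and *Rxra* fell (log2 −0.98). *Hnf4a*, for a receptor known from liver and gut, had 13.95, 2.30 and 3.11 against 76.6, 108 and 147 (log2 4.09).

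KLF, SOX, GATA, forkhead and ETS proteins bind DNA through family-specific domains. Among their genes 26 of 79 tested members were lower, 19 were higher and 34 did not pass (median log2 fold change −0.23), with 12 higher on genes above 100 normalised counts, and scaling by library size alone gave 20 lower and 26 higher. *Foxp2* had 297, 381 and 297 in WT and 31.6, 20.1 and 38.1 in *Tbpl2*-/- (log2 fold change −3.43, SE 0.26, adjusted p = 2.89e-08), *Foxc1* fell from 843 to 183 (log2 −2.18), and *Foxj3*, the most abundant per kb, from 23275 to 11146 (log2 −1.04). *Etv5*, a PEA3-type ETS gene that answers to fibroblast growth factors, rose, with 228, 231 and 147 against 771, 674 and 919 (log2 fold change 1.99, SE 0.22, adjusted p = 1.88e-06) and 24.5% of the 50-base windows recurring in *Gm4798*. Among homeobox genes 14 of 53 tested members were lower, 18 were higher and 21 did not pass (median log2 fold change 0.29), with 6 lower and 24 higher by library size alone. *Meis2*, the most abundant per kb, had 25171, 25453 and 20858 against 7117, 6621 and 6359 (log2 fold change −1.81, SE 0.12, adjusted p = 6.17e-09). *Hoxd9* and *Hoxd8*, neighbours in the HoxD cluster, both rose (log2 3.22 and 2.93).

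Genes of innate sensing and the interferon response completed the lists, with 44 tested: 14 were lower, 12 higher and 18 did not pass (median 0.09), and scaling by library size alone gave 10 lower and 17 higher. *Nfkbia*, for the inhibitor that holds NF-kappaB in the cytoplasm, had 3532, 3800.2 and 3536 in WT and 569, 551 and 492 in *Tbpl2*-/- (log2 fold change −2.73, SE 0.12, adjusted p = 1.16e-10). *Irf1*, the most abundant per kb, had 19995, 20711 and 18022 against 6296, 6729.7 and 6984 (log2 fold change −1.53, SE 0.10, adjusted p = 9.96e-09), and *Irf8* went from 954 to 310.2 (log2 −1.599). *Ifngr1*, for a chain of the interferon-gamma receptor, had 13.95, 23.0 and 18.7 against 429, 298 and 279.5 (log2 fold change 4.19, SE 0.26, adjusted p = 3.61e-09). *Tlr5*, for the sensor of flagellin, rose from 208 to 736 (log2 1.85), while *Tlr3* and *Tlr8*, for sensors of RNA, fell (log2 −3.27 and −4.66), *Tlr8* from 65.2 to 2.31.

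Marker genes were read to see which cells the pools held. Of 10 oocyte markers 7 were lower and 1 higher, and their summed level was 1530000 to 1870000 normalised counts in WT and 564000 to 735000 in *Tbpl2*-/-, above all other lists in every library. *Figla*, for the factor that starts the follicle, was the oocyte marker that rose, with 1641, 1419 and 1618 in WT and 3894, 3364 and 2409 in *Tbpl2*-/- (log2 fold change 1.07, SE 0.18, adjusted p = 0.000115), and *Ddx4* and *Kit* did not pass. The sum of 12 granulosa markers was 4920 to 5230 in WT and 5010 to 5560 in *Tbpl2*-/-, with overlap. Of these markers 1 was lower (*Cyp19a1*, 541, 457 and 371 against 207, 155 and 215) and 1 higher (*Kitl*, 192, 168 and 246 against 280.5, 297 and 477), and *Foxl2* and *Amh* stayed under 60 in every library, the larger part of the sum being *Esr2*. The endothelial list went from 3200 to 3870 in WT to 947 to 1160 in *Tbpl2*-/-, the sum being mostly *Pecam1* and *Tek*, which fell (log2 −2.48 and −1.09). *Kdr*, of the same list, rose, with 52.6, 56.3 and 40.5 against 85.2, 76.3 and 121 (log2 fold change 0.94, SE 0.27, adjusted p = 0.00804), and *Cdh5* and *Emcn* had fewer than 2 normalised counts in every library. The smooth muscle list went from 3880 to 4570 in WT to 2560 to 3090 in *Tbpl2*-/-, mostly *Myh11*, and its marker *Acta2* had 25.8 in WT replicate 1 and under 2 in the other libraries. The surface epithelium list went from 137 to 196 in WT to 33.5 to 85.7 in *Tbpl2*-/-, mostly *Upk3b*, with *Krt19* at 0. The stromal, macrophage and theca sums were at most 431 in any library and overlapped between genotypes. Of their members 3 were called, all at low counts, with *Dcn* at 6.44, 4.59 and 3.11 against 25.8, 20.1 and 23.4 and *Lhcgr* at 8.59, 13.8 and 13.5 against 26.8, 32.6 and 55.4 (both higher), and *Col3a1* at 15.0, 5.74 and 5.19 against 0, 1.39 and 0 (lower). The part of other cells in the results was not tested.

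**Figure D5:**
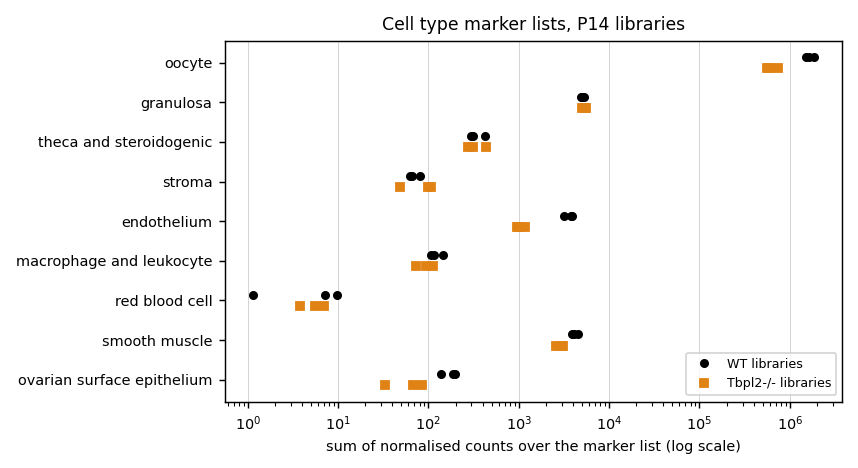
Sum of normalised counts (log scale) over 9 lists of cell type markers in each P14 library, circles for WT and squares for *Tbpl2*-/-. The oocyte list lies at 564000 or more in each library and is lower in *Tbpl2*-/-, the granulosa list overlaps between genotypes, and the red blood cell list stays under 10.

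By gene type, coding genes were near the background (13.4% of 14378 lower and 16.5% higher by more than 2-fold). Of 516 processed pseudogenes 24.2% were lower and 12% higher (median −0.25), and of 1093 lincRNAs 23.4% were lower and 20.3% higher. Reads of processed pseudogenes may belong to their parent genes. By chromosome, the share lower ran from 10.7% (chromosome 11) to 18.1% (chromosome 13) among autosomes and X, and the share higher from 13.9% (chromosome 5) to 20.3% (chromosome 11). These shares are given as a description. Of 13 tested genes of the mitochondrial genome none was lower and 1 was higher by more than 2-fold.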

How the data were processed

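RNA-seq libraries were made by the authors from polyadenylated RNA of pooled oocytes (SMART-Seq v4, without strand marks or molecular identifiers). Single reads were trimmed (cutadapt), cleared of spike sequences (bowtie) and aligned to mm10, and uniquely aligned reads per gene were counted in union mode against Ensembl release 96. The submitters' processing notes name bcl2fastq 2.17.1.14, STAR 2.7.0f, HTSeq 0.9.1, R 3.5.3 and DESeq2 1.22.2. The strand setting of the counting is not given in the sources used here. The table deposited by the authors holds raw read counts per gene and library, which were tested as deposited. The authors also deposited a normalised signal, each count divided by a DESeq2 size factor over the 12 libraries, which gave the levels printed per library. Its columns of group means, fold changes and p-values were not used.

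Gene by gene, P14 *Tbpl2*-/- was tested against P14 WT with edgeR 4.0.16 (R 4.3.3) in a quasi-likelihood fit of all 12 libraries by group, with TMM factors, filterByExpr and Benjamini-Hochberg adjustment over the 17715 genes kept. A call needed an adjusted p of at most 0.05, and the counts over all genes also a change of more than 2-fold. The fit was tested on simulated counts. No 2 columns of counts were identical. Correlations of the deviations of same-numbered libraries were −0.0913, −0.1124 and 0.2195, so the replicate numbers were not taken as pairs. Alternatives were DESeq2 1.42.0 (its size factors, and its Wald test), library size alone, upper-quartile factors, no filter, only genes with a mean above 100 normalised counts, the P14 libraries alone, a replicate block and each P14 library left out.

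The members and gene lists were chosen with earlier results of these data known. Named genes were *Tbpl2*, the 10 largest falls and rises by fold and the 5 by count among called genes with a mean above 100 and no overlap between genotypes (predicted genes and genes described before set aside), and in each list up to 3 members called in each direction above that mean with the most abundant per kb of median transcript length. Named outside that rule, after their values were seen, were *Terb2*, *Fancd2*, *Fancb*, *Fanca*, *Fance*, *Optn*, *Gabarapl1*, *Hspa1a*, *Cct2*, *Cct4*, *Cct7*, *Cct8*, *Ebp*, *Ckap5*, *Bmpr1b*, *Smad9*, *Smad7*, *Axin2*, *Ptch1*, *Jag1*, *Hes1*, *Hoxd8*, *Hnf4a*, *Rxra*, *Ret*, *Tlr3*, *Tlr8*, *Wnt7b*, *Wnt6*, *Wnt9a*, *Kcnj13*, *Polg*, *Polrmt*, *Txn2*, *Prdx3*, *Tbce*, *Tomm40*, *Timm13* and *Tomm5*. Some genes that the rule chose are not reported here. A spreadsheet had turned 15 symbols into dates, which were restored by gene ID. Positions are those of GENCODE M21 on GRCm38, and promoters those of RefSeq (GRCm38.p6), matched by symbol or synonym to 12535 tested genes at the start nearest the annotated end. Figures were drawn with Python 3.11.15 and matplotlib 3.10.9. Counting error is small at this depth for all but the lowest genes, and without molecular identifiers reads are not independent molecules.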

Additional observations from a re-analysis of the deposited data

How the results depend on the processing

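The counts of genes lower and higher by more than 2-fold (2589 and 2967) were 1556 and 4922 by library size alone, and 1543 and 1614 on genes with a mean above 100 normalised counts, where fewer genes were tested. Leaving out each P14 library in turn gave 2391 to 2575 lower and 2807 to 3109 higher. Numbers of replicates did not pair the libraries, the highest correlation of deviations being that of WT replicate 2 with *Tbpl2*-/- replicate 1 (0.3049), and a replicate block gave 2558 lower and 2878 higher. By library size alone 5 of 281 genes chosen for naming changed direction, *Hsp90ab1* to 0.02, *Nsf* to 0.05, *Pex13* to 0.35, *Hspa9* to 0.33 and *Ctnnb1* to 0.11 on the log2 scale, 12 lost and 2 gained a call, with the other 262 on the same side. This scaling raised the median of all genes to 0.48, and 42 of 62 counts of list members moved by over 1.5 times. On genes above 100 normalised counts 6 of 62 did, and with a library left out 1 or 2. Under each other setting 0 to 6 of these genes lost a call and at most 1 gained one, and the cause was not tested. Genes of a few reads per library, such as *Kcnj13* in *Tbpl2*-/-, have fold changes that depend on the prior count of the fit.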
